A study of Homo sapiens with 6 samples.

Results

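The genes described here encode the proteins of the mitochondrial ribosome. They were chosen by name, as every gene of the array whose symbol is MRPL or MRPS followed by a number and at most 1 letter, with the brightest probe set kept for each gene. The choice gave 73 genes of 18377, of which 50 encode proteins of the large subunit and 23 proteins of the small subunit. Probe sets paired with MRPL51, MRPS6, MRPS24 or MRPS28 also carried the symbol of a second gene and were not used here. RNA came from MDA-MB231, an established human breast cancer cell line, transfected with the pTargeT mammalian expression vector that carried GHSROS (3 cultures) or with the same vector left empty (3 cultures). GHSROS, a long noncoding RNA, is read from the strand opposite the ghrelin receptor gene GHSR. All cultures grew in the same serum-containing medium and differ by label only in the insert of the vector. The labels do not say whether the cells were stable clones, pools or transiently transfected. Total RNA was read on 6 Affymetrix Human Gene arrays, and all levels below are log2 values made by the authors with RMA.

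Mitochondria keep a ribosome of their own, which translates the few messenger RNAs of mitochondrial DNA into core subunits of the respiratory chain. Its ribosomal RNAs are copied from mitochondrial DNA, while all its proteins are encoded in the nucleus and imported, so the organelle's ribosome depends on many scattered nuclear genes being expressed together. Some of the proteins have a counterpart in the bacterial ribosome, and others were gained in the mitochondrial lineage and coat the surface of the particle. Not every name matches the subunit: the proteins of MRPS30 and MRPS18A sit in the large subunit and are counted there.

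The arrays were not all alike, and this touches every value below. The mean of 20 mitosis genes was 10.14 for empty-vector array 1 and 10.17 for GHSROS array 3, against 10.97 to 11.20 on the other 4 arrays, and the mean of 20 ATF4 amino acid stress genes was 9.89 and 9.93, against 9.04 to 9.44. The cells carried the high VIM (12.99 to 13.37 over the 6 arrays), CD44, AXL and MSN of a mesenchymal line, and of 5 luminal or epithelial markers ESR1 (5.04 to 5.18) and CDH1 (5.01 to 5.35) lay below the array medians of 6.56 to 6.65. ERBB3 (6.57 to 7.12) reached above those medians, GATA3 (7.30 to 7.52) lay above them, and KRT8 was high (12.05 to 12.15). SPARC, fixed as a marker of such a line, lay low (5.86 to 6.64). Among blood and endothelial markers PTPRC, CD3E, HBB, VWF and PECAM1 stayed below 6.56, while CDH5 (6.65 to 7.32), CD14 (6.56 to 8.98) and KDR (7.20 to 9.10) reached higher. Of the neuron markers SNAP25 (5.73 to 6.19) was low, and SYT1 (7.07 to 7.68) and RBFOX3 (6.59 to 7.11) reached above the medians. CD14 and KDR were highest on the same arrays, at 8.98 and 8.81 on empty-vector array 1 and 8.09 and 9.10 on GHSROS array 3, and their part in the results was not tested.

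Between the vectors, the mean level of the mitochondrial ribosomal protein genes differed by less than the spread between cultures. On the log2 scale 53 of the 73 genes were lower with GHSROS and 20 higher, and the median log2 fold change was -0.06. Over all genes the median was 0.002, and 49.1% were lower. Of genes at or above the median level, where all but 2 of the 73 lie, 55.8% were lower, with a median of -0.01. The 73 genes had a mean level of 10.00 ± 0.19 in empty-vector cultures and 9.95 ± 0.13 in GHSROS cultures (SD, n = 3 each), a gap smaller than either SD. In limma 0 of the 73 passed an adjusted p of 0.05, where 0% of all genes did. At an unadjusted p under 0.05 there were also 0, where 1.77% of all genes stood. Single log2 fold changes ran from -0.32 for MRPS12 to 0.16 for MRPS25, and the 95% intervals of all 73 lay between -0.74 and 0.85. The share of lower genes followed single arrays. Without empty-vector array 3 the direction turned, with 51 of 73 higher and a median of 0.06, and without GHSROS array 3 there were 40 higher and a median of 0.01. Without empty-vector array 1 only 3 were higher (median -0.11). Without GHSROS array 1 there were 8 higher (-0.11) and without GHSROS array 2 there were 13 (-0.06). With both arrays of low mitosis genes left out, 19 of 73 were higher and the median was -0.07.

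**Figure D1:**
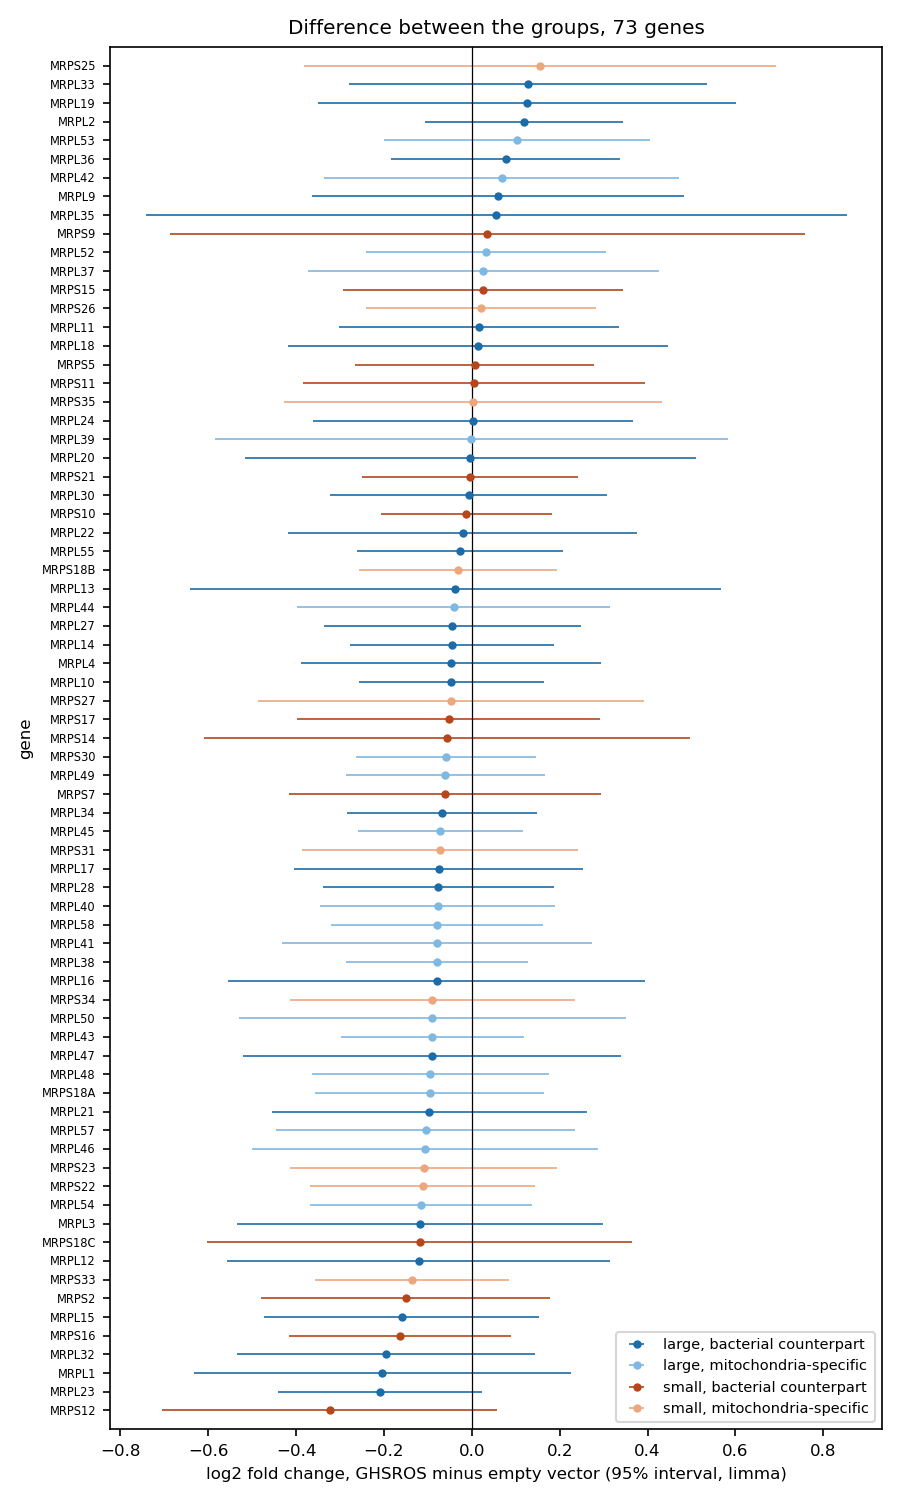
Log2 fold change (GHSROS minus empty vector, horizontal axis) of each of the 73 genes, with its 95% interval from limma, coloured by subunit and by whether the protein has a bacterial counterpart. Every interval includes 0, and the points run from -0.32 (MRPS12) to 0.16 (MRPS25).

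What the genes shared was their course over the single arrays. Set against its own mean over the 6 arrays, each of the 73 genes was above that mean on empty-vector array 3, while 59.4% of all genes were, and 57.6% of genes at or above the median level. For 53 of the 73 (72.6%) this array held the highest value, against 25.6% of all genes and 28.5% of genes at or above the median level. The lowest value fell on empty-vector array 1 or GHSROS array 3 for 56 of the 73 (76.7%), against 37.2% of all genes and 44.8% of genes at or above the median level. After centring each array on its median these were 60 of 73 and 4694 of 9189 such genes. The median deviation of the 73 genes was -0.12, -0.03 and 0.24 on empty-vector arrays 1 to 3 and 0.09, 0.02 and -0.19 on GHSROS arrays 1 to 3, where the median of all genes stayed between -0.02 and 0.03. The pattern was much the same after quantile normalization, with 72 of 73 above their own mean on empty-vector array 3, and after centring each array on its median, with 73. The arrays on which these genes were low are those on which mitosis genes were low and ATF4 stress genes high, and the part of either in the levels was not tested. These shares describe 6 arrays and carry no test.

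**Figure D2:**
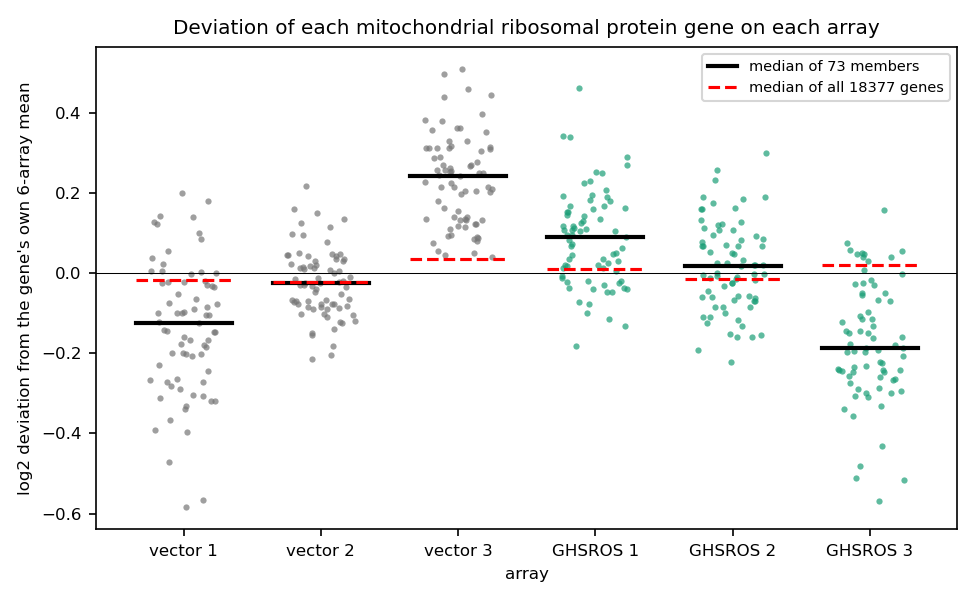
Each point is 1 of the 73 genes on 1 array, as its log2 deviation from its own mean over the 6 arrays (vertical axis). Black bars are the median of the 73 genes and dashed red bars the median of all 18377 genes. Every point of empty-vector array 3 lies above 0, with a median of 0.24.

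The strength of this course differed among the genes. The distance from the lowest to the highest array had a median of 0.49 over the 73 genes. This median was 0.37 over all genes and 0.42 over genes at or above the median level. Over 57 cytosolic ribosomal protein genes, a list added after the data were seen, it was 0.22. Array means ran from 11.94 to 12.06 for that list and from 9.80 to 10.21 for the 73 genes. The part of level in the spans was not tested. Of the 73 genes MRPL35, encoding a large subunit protein with a bacterial counterpart, spanned most, at 1.05. It stood at 9.90, 10.52 and 10.94 on empty-vector arrays 1 to 3 and at 10.94, 10.67 and 9.91 on GHSROS arrays 1 to 3, so each group held both a low and a high array and the groups overlapped fully. MRPS9 spanned 0.93, from 7.11 on empty-vector array 1 to 8.04 on empty-vector array 3, with 7.16 on GHSROS array 3. MRPL13 spanned 0.84 and reached its lowest level, 7.12, on GHSROS array 3. At the other end MRPS10, of the small subunit, stayed between 11.40 and 11.52 on all arrays, and MRPL45 spanned 0.15. A minority peaked on an array where most of the 73 were low, though these too were above their own mean on empty-vector array 3. MRPL34, MRPL40, MRPL49, MRPS16, MRPS18A and MRPS33 were highest on empty-vector array 1, and MRPL48 was highest on GHSROS array 3. In the large subunit, genes with a bacterial counterpart had a median span of 0.53 and those specific to mitochondria 0.36. In the small subunit the medians were 0.50 and 0.42.

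**Figure D3:**
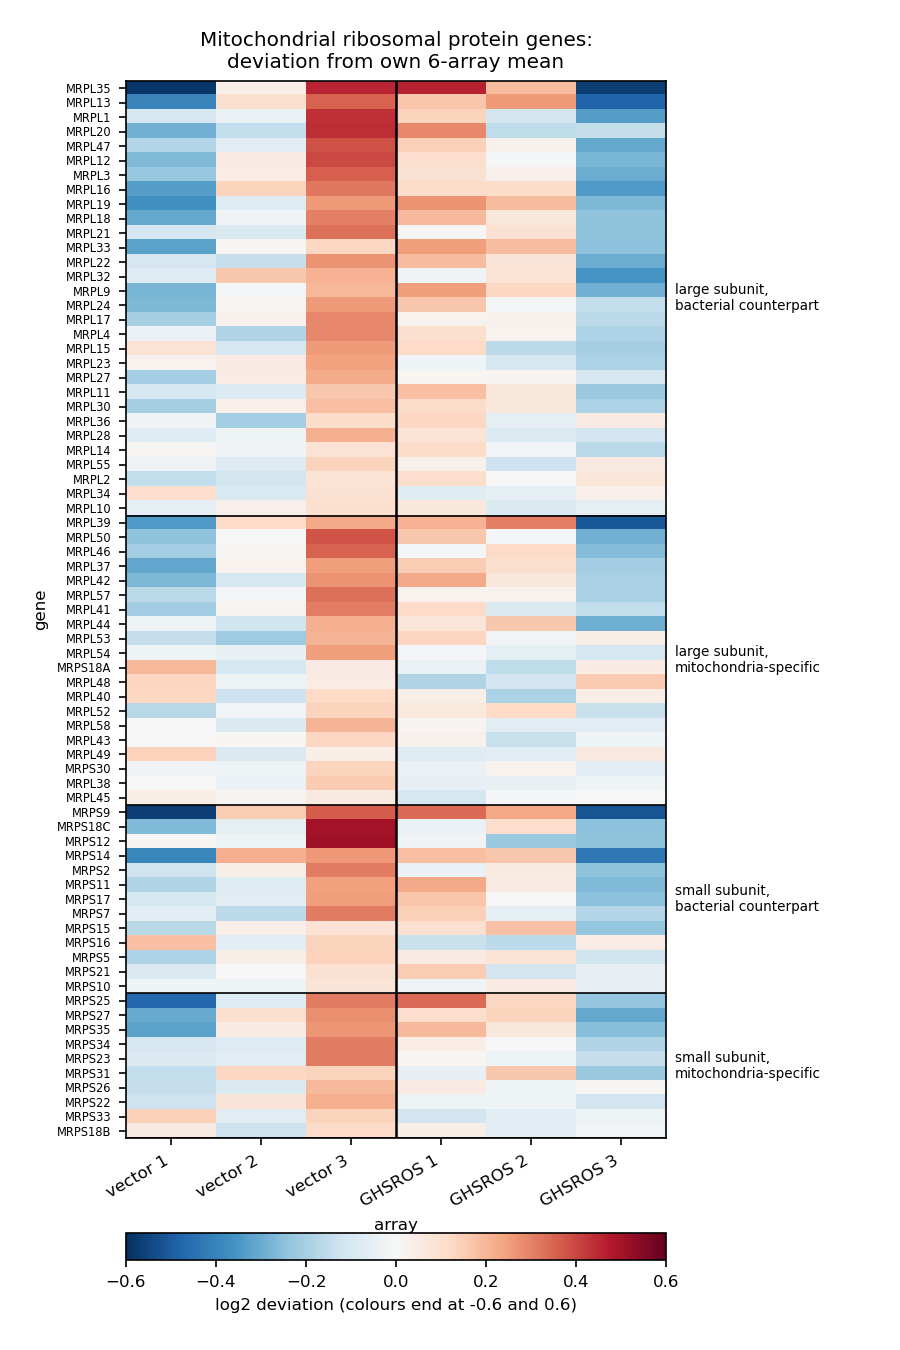
Heat map of the 73 genes (rows, ordered by span within each class) on the 6 arrays (columns), coloured by log2 deviation from the gene's own mean, with red above and blue below. The empty-vector array 3 column is red in every row, and most rows are blue on empty-vector array 1 and GHSROS array 3.

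Among large subunit genes with a bacterial counterpart, 21 of 30 were lower with GHSROS and 9 higher, at a median of -0.04, and 0 passed the test. MRPL23, on chromosome 11, encodes a protein placed near the exit of the peptide tunnel. Its probe set 7937763 read 9.62, 9.65 and 9.84 on empty-vector arrays 1 to 3 and 9.57, 9.50 and 9.41 on GHSROS arrays 1 to 3. No GHSROS value reached the lowest empty-vector value. The log2 fold change was -0.21 (SE 0.10), and its p of 0.0717 in limma was the smallest of the 73 genes, with an adjusted p of 1. Groups without overlap were seen for 2 of the 73 genes, both lower, against 5.51% of all genes (2.44% lower and 3.06% higher). Of 9189 genes at or above the median level, 223 were lower and 111 higher without overlap. After quantile normalization there were 2 of the 73 and 1063 of all 18377 genes, and after centring each array on its median 4 and 1046. MRPL32, whose protein is cut by an inner membrane protease after import, went from 10.57 ± 0.15 in empty-vector cultures to 10.38 ± 0.23 in GHSROS cultures (SD, n = 3 each), and its log2 fold change was -0.20 (SE 0.14), or -0.07 without GHSROS array 3. On the higher side MRPL2, a component next to the peptidyl transferase centre, read 10.61, 10.65 and 10.84 on empty-vector arrays 1 to 3 and 10.86, 10.75 and 10.83 on GHSROS arrays 1 to 3. These groups overlapped, and the log2 fold change was 0.12 (SE 0.10). MRPL33 differed by 0.13 (SE 0.17), with its lowest levels of 8.71 for empty-vector array 1 and 8.78 for GHSROS array 3. MRPL12 forms the stalk that recruits translation factors and is also known to bind the mitochondrial RNA polymerase. It went from 10.62 ± 0.33 to 10.50 ± 0.20 (SD, n = 3 each), well inside the spread.

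Of the large subunit genes specific to mitochondria, 16 of 20 were lower and 4 higher, at a median of -0.08, again with 0 past the test. MRPL45, whose protein sits at the tunnel exit and tethers the ribosome to the inner membrane, was the other gene whose groups did not overlap. It read 12.54, 12.52 and 12.56 on empty-vector arrays 1 to 3 and 12.41, 12.50 and 12.50 on GHSROS arrays 1 to 3. The smallest gap between the groups was slight beside the distance between GHSROS arrays, and the log2 fold change was -0.07 (SE 0.08). The genome holds a pseudogene copy of MRPL45, and whether the probe set reads it was not tested. MRPL54 and MRPL43, the lower genes of this class with the smallest p, differed by -0.12 (SE 0.11) and -0.09 (SE 0.09). MRPL53 and MRPL42 were the higher ones, at 0.10 (SE 0.13) and 0.07 (SE 0.17). MRPL50 ranged from 11.52 on GHSROS array 3 to 12.18 on empty-vector array 3. MRPL58, a peptidyl-tRNA hydrolase that also rescues stalled ribosomes, ranged only from 10.16 to 10.45.

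In the small subunit, 9 of 13 genes with a bacterial counterpart were lower, at a median of -0.05, and 0 passed. The lower ones were 7 of 13 after quantile normalization and 11 of 13 after centring each array on its median. MRPS12, on chromosome 19, encodes a protein of the decoding centre, where codon and transfer RNA are matched. Its probe set 8028563 stood at 8.80, 8.76 and 9.30 on empty-vector arrays 1 to 3 and at 8.77, 8.57 and 8.55 on GHSROS arrays 1 to 3. The high value of empty-vector array 3 stood alone, and GHSROS array 1 lay level with empty-vector array 2. The log2 fold change of -0.32 (SE 0.16) was the largest in size of the 73 genes, and it was -0.15 without empty-vector array 3. In limma its p was 0.0845 and its adjusted p 1. MRPS16, known from a severe inherited disorder of mitochondrial translation, differed by -0.16 (SE 0.11), from 10.88 ± 0.13 to 10.71 ± 0.11 (SD, n = 3). MRPS9 and MRPS15 were the higher genes with the smallest p, at 0.04 (SE 0.30) and 0.03 (SE 0.13), both far inside their error.

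Of the small subunit genes specific to mitochondria, 7 of 10 were lower and 3 higher, at a median of -0.06, with 0 past the test. MRPS33 and MRPS22 differed by -0.14 (SE 0.09) and -0.11 (SE 0.11), and MRPS22 is another gene mutated in mitochondrial translation disease. MRPS25 had the largest positive value of all 73, 0.16 (SE 0.23). It read 8.44, 8.83 and 9.22 on empty-vector arrays 1 to 3 and 9.25, 9.04 and 8.68 on GHSROS arrays 1 to 3, with full overlap. Without empty-vector array 1 its difference was -0.04. MRPS26 differed by 0.02 (SE 0.11). MRPS27, a pentatricopeptide repeat protein of the kind that binds RNA, was lowest on the arrays of low mitosis genes, at 11.21 on both, and between 11.61 and 11.79 on the others.

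The 3 MRPS18 paralogues, descended from a single bacterial ribosomal protein, did not share a course. MRPS18C, the closest counterpart of that bacterial protein, read 6.59, 6.81 and 7.36 on empty-vector arrays 1 to 3 and 6.82, 6.97 and 6.61 on GHSROS arrays 1 to 3. MRPS18A, whose product moved to the large subunit, read 11.49, 11.18 and 11.34 and then 11.25, 11.13 and 11.33. MRPS18C was thus lowest on the array where MRPS18A was highest. MRPS18B stayed between 10.98 and 11.21. None was separated by vector, with log2 fold changes of -0.12 (SE 0.20), -0.10 (SE 0.11) and -0.03 (SE 0.10) for C, A and B in that order.

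Several of these genes start back to back with a neighbour on the other strand. Among the 66 genes with a RefSeq promoter window (GRCh38.p14), 19 had a protein-coding start on the opposite strand within 1000 bases upstream. For 14 of them it lay closer than 300 bases. On chromosome 15 both partners are members: the starts of MRPS11 and MRPL46 lie 320 bases apart. MRPS11 read 11.22, 11.32 and 11.64 on empty-vector arrays 1 to 3 and 11.62, 11.44 and 11.13 on GHSROS arrays 1 to 3, and MRPL46 read 10.12, 10.33 and 10.67 and then 10.30, 10.43 and 10.06. Both were highest on empty-vector array 3 and lowest on GHSROS array 3. MRPS12 starts 181 bases from SARS2, the gene of the mitochondrial seryl-tRNA synthetase. SARS2 read 9.44, 9.61 and 9.87 on empty-vector arrays 1 to 3 and 9.61, 9.48 and 9.45 on GHSROS arrays 1 to 3, so it too was highest on empty-vector array 3. Its log2 fold change was -0.12. That array was also the highest for 10 of the 19 mitochondrial tRNA synthetase genes measured. Such likeness between neighbours was not general. MRPL49 lies 49 bases from FAU, which encodes a cytosolic ribosomal protein, and while MRPL49 was highest on empty-vector array 1 (10.63), FAU was low there (11.06) and highest on empty-vector array 2 (11.60). Of the 19 distinct partners, MRPS11 and MRPL46 included, 8 were highest on empty-vector array 3.

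**Figure D4:**
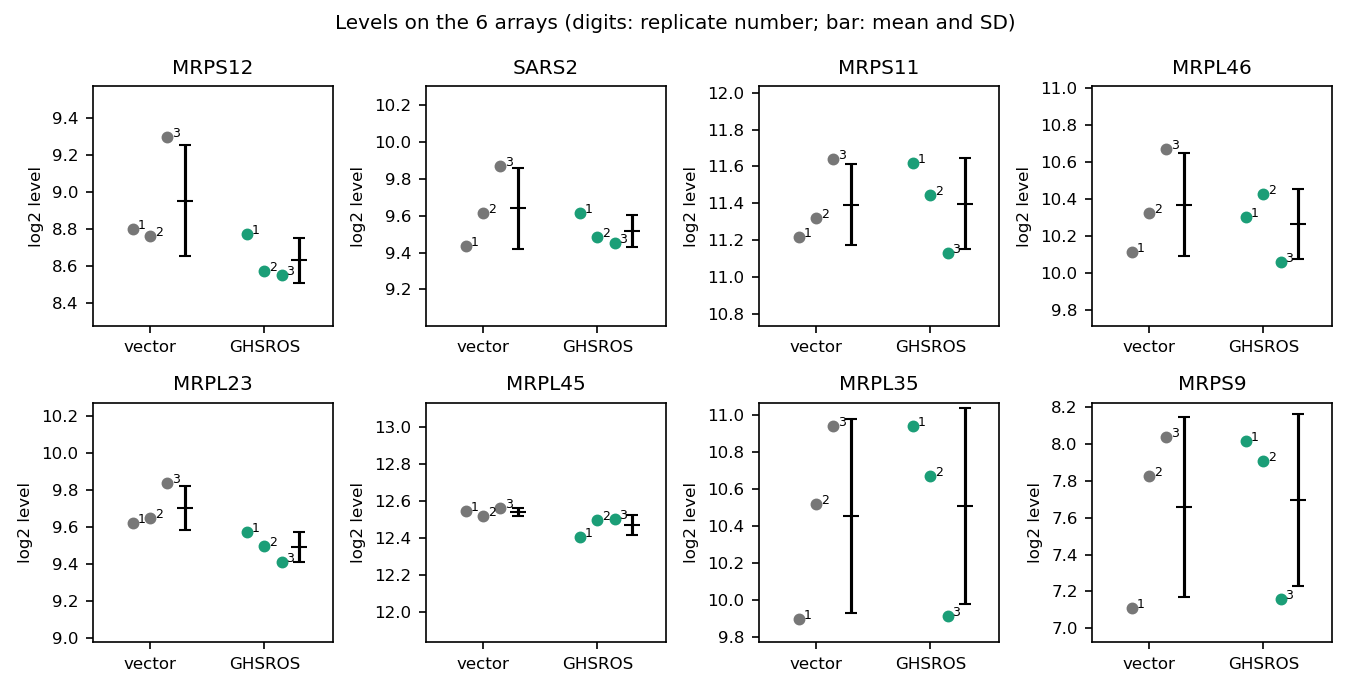
Log2 level (vertical axis, 1.3 units tall in each panel) of 8 genes on the 6 arrays, grey for the empty vector and green for GHSROS, with the replicate number beside each point and the mean and SD of each group. MRPS12 and its neighbour SARS2, and MRPS11 and its neighbour MRPL46, are each highest on empty-vector array 3, and MRPL35 and MRPS9 have a low and a high array in each group.

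Short stretches just upstream of the start site are shown for 5 genes, since promoter motifs are a feature the choice by name did not use. MRPS11 and MRPS12 stand for genes with a neighbour back to back, MRPS9 for a wide and MRPL45 for a narrow span, and MRPL53 for an ETS match in a gene of middling span. They were chosen after their values were seen. All are from RefSeq, GRCh38.p14, written 5′ to 3′ on the strand of the named gene, ending at the base before its start site. Capitals mark a match to the NRF1 motif or the ETS family motif (CCGGAAG), searched on both strands. NRF1 and the ETS factor GABP are known regulators of nuclear genes for mitochondrial proteins. The MRPS11 stretch (chr15:88467458-88467707, + strand) lies between the starts of MRPS11 and MRPL46 and holds neither motif. The MRPS12 stretch (chr19:38930764-38930953, + strand) runs from the SARS2 start to the more distant of the MRPS12 starts. The others are MRPS9 (chr2:105037949-105038068, + strand), MRPL45 (chr17:38296968-38297167, + strand) and MRPL53 (chr2:74472681-74472780, - strand).
MRPS11: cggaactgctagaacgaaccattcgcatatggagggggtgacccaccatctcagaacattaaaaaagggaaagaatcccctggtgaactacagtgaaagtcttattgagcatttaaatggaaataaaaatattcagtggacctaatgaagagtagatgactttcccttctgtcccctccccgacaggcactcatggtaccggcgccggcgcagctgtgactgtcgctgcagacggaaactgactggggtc
MRPS12: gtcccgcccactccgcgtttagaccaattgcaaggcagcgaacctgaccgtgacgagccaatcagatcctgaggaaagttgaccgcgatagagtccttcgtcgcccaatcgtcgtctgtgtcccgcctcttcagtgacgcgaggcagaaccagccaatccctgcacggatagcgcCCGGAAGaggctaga
MRPS9: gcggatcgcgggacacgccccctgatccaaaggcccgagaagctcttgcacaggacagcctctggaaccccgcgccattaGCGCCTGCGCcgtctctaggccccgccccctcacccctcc
MRPL45: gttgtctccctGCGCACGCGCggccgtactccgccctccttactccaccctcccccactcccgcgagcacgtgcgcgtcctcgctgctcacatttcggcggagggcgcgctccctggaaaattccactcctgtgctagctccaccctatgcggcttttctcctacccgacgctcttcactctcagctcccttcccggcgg
MRPL53: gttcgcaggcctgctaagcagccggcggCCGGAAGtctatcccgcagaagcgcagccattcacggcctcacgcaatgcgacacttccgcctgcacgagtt

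The NRF1 match of MRPS9 begins 40 bases before the start and that of MRPL45 189 bases before it, and these are genes of a wide and a narrow span over the arrays. The ETS match begins 15 bases before the start in MRPS12 and 72 bases before it in MRPL53. Over the windows of 250 bases before to 50 after the start, the ETS motif was found in 32 of 82 windows of these genes (39.0%), against 12.8% of 22199 protein-coding windows. The YY1 motif was found in 11.0% against 1.18%, the NRF1 motif in 12.2% against 7.39%, the E-box CACGTG in 11.0% against 8.34%, and the TATA box TATAAA in 3.66% against 9.47%. The 22199 windows belong to genes of any level, and windows of genes at a like level were not compared. Windows of a gene with several starts overlap, and motifs can overlap each other. The 29 genes with an ETS match in a window had a median span over the arrays of 0.36, and the other genes with a window 0.53. Genes with an NRF1, a YY1 or an E-box match (9 genes each) likewise had narrower spans, at a median of 0.33 each. Without such a match the medians were 0.50, 0.49 and 0.49. The 3 genes with a TATA box match had a median of 0.41, against 0.49 without. All motifs searched thus went the same way, but the gene sets overlap. MRPL36, with a span of 0.33, is in all 3 sets of 9 genes. The motifs are therefore not separate observations, and the difference was not tested. A match is a description of letters, and binding was not measured.

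The rest of the mitochondrial translation machinery, given from lists fixed by name, had 0 members past the test in any list, where 0% of all genes passed. At an unadjusted p under 0.05 in limma there were also 0, where 1.77% of all genes stood. At that share, lists of 4 to 26 genes would hold few or none. Proteins of the same ribosome with other names were lower in 3 of 4 (median -0.04), and in 4 of 4 after centring each array on its median, with CHCHD1 at 0.01 (SE 0.13), which was -0.0055 after that centring, and GADD45GIP1 at -0.05 (SE 0.09). Assembly and ribosomal RNA processing genes were lower in 14 of 26 (median -0.005), with 15 of 26 higher after quantile normalization. In that list LRPPRC, which stabilises mitochondrial messenger RNAs, differed by 0.12 (SE 0.09) and METTL15, a methyltransferase of the small ribosomal RNA, by -0.24 (SE 0.18). The METTL15 value was -0.08 without GHSROS array 3 and -0.003 without the 2 arrays of low mitosis genes. Translation factors were lower in 7 of 13 (median -0.03). The initiation factor gene MTIF3 had the smallest p there, 0.0973 in limma with an adjusted p of 1, at 8.84 ± 0.17 (SD, n = 3) and 8.63 ± 0.08, a log2 fold change of -0.21 (SE 0.11). The elongation factor homologue GUF1 differed by 0.16 (SE 0.14).

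Mitochondrial aminoacyl-tRNA synthetases, which charge the transfer RNAs, were lower in 10 of 19 (median -0.01), with 13 of 19 higher after quantile normalization. IARS2 differed by 0.12 (SE 0.10) and FARS2 by -0.22 (SE 0.14). Genes of mitochondrial DNA transcription and replication were lower in 13 of 17 (median -0.03), with PNPT1, a polynucleotide phosphorylase, at 0.23 (SE 0.35) and the transcription elongation factor TEFM at -0.20 (SE 0.23). Regulators of mitochondrial biogenesis were split 5 to 5, and 8 of 10 were lower after centring each array on its median. Among them MYC was lower on all GHSROS arrays (11.90 to 12.10) than on any empty-vector array (12.11 to 12.25), though the gap was slight. Its log2 fold change of -0.15 (SE 0.09) did not pass. Groups without overlap were seen for 1 of these 10 regulators, 1 of 26 assembly genes and 1 of 13 translation factor genes. Over all genes the share was 5.51%. After quantile normalization 0 of the 10 regulators had such groups. ESRRA, an orphan nuclear receptor gene, differed by 0.14 (SE 0.13), or 0.02 without GHSROS array 3.

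The course over arrays recurred in part of these lists. Genes of mitochondrial DNA transcription and replication had means of 9.23, 9.42 and 9.64 on empty-vector arrays 1 to 3 and 9.59, 9.45 and 9.19 on GHSROS arrays 1 to 3, and 13 of 17 were lowest on empty-vector array 1 or GHSROS array 3. Of the tRNA synthetase genes 16 of 19 were lowest on 1 of those arrays. All 20 mitosis genes were, with NUSAP1 and KIF11, both of the spindle, differing between the groups by 0.26 (SE 0.28) and -0.01 (SE 0.34), the latter 0.0065 after quantile normalization. ATF4 stress genes ran in reverse, with 1 of 20 lowest on those arrays. This list too was used above to describe the arrays, so neither count is a separate result. SLC7A11 and STC2 of that list differed between the groups by 0.04 (SE 0.08) and -0.11 (SE 0.13). Cytosolic ribosomal protein genes were lower with GHSROS in 42 of 57 (median -0.03), 33 of 57 after quantile normalization and 49 of 57 after centring. Of these, 11 of the 57 were lowest on empty-vector array 1 or GHSROS array 3, a share of 19.3% beside 76.7% for the mitochondrial ones. They were 16 of 57 after quantile normalization and 26 of 57 after centring, where the mitochondrial ones were 51 and 60 of 73. The difference between these lists was not tested. In RNA from whole cultures, fewer cells in a state and less RNA per cell cannot be told apart.

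**Figure D5:**
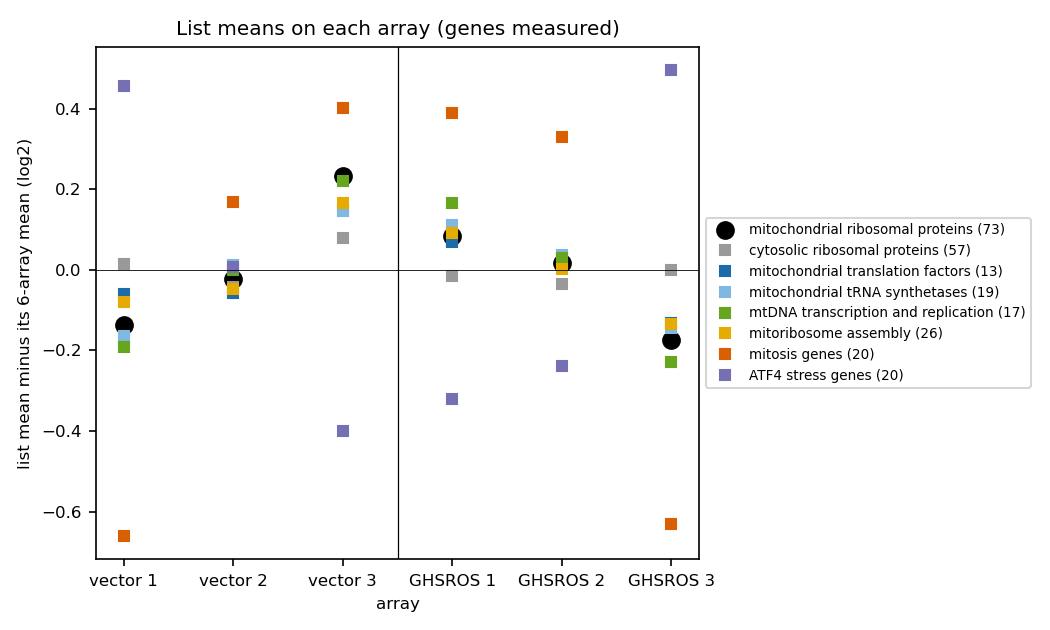
Mean log2 level of each gene list on each array, minus the list's mean over the 6 arrays (vertical axis), with the number of genes measured in the legend. Mitochondrial ribosomal protein genes (black circles) are lowest on empty-vector array 1 and GHSROS array 3, as are mitosis genes, while ATF4 stress genes are highest there and cytosolic ribosomal protein genes stay near 0.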

How the data were processed

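Total RNA of 6 cultures was hybridised to Affymetrix Human Gene Arrays 1.0 per the labels' protocols, and sample titles gave groups and replicate numbers. The authors used RMA, according to the submitters' processing notes, and deposited 1 log2 level per probe set and array; no source used here gives its version or any filter. Such normalization can remove a shift shared by most genes. The platform annotation gave 1 symbol to 19310 of 28869 probe sets, several to 1752 and none to 7807; the brightest per gene left 18377 genes, with 0 missing values. MRPL20 and MRPS18B have several probe sets with equal values. Chromosomes come from a RefSeq table of GRCh38.p14, in which all 73 symbols were found.

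The test was limma 3.58.1 under R 4.3.3 (group as the only term, two-sided, Benjamini-Hochberg over all genes, threshold 0.05), tested on simulated data. The submitters call the 3 cultures of a group biological replicates; if they were not separate cultures, p-values measure only technical spread. Promoter windows came from RefSeq; the NRF1 and YY1 motifs are given by name. The members and lists were chosen with earlier results of these data known. Genes were named by the smallest p per class and direction, groups without overlap, extremes of level and span, and the MRPS18 paralogues; other named genes were chosen after their values were seen. Alternatives were a replicate block, quantile normalization, median centring, a filter at the median level, averaged probe sets, limma's trend with robust fitting and omission of each array.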

Additional observations from a re-analysis of the deposited data

How the results depend on the processing

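The number of genes past the test stayed at 0, for the 73 genes and over all genes, under each of 13 alternatives. The 73 genes had 0 at an unadjusted p under 0.05 in each. Counts of higher genes ran from 3 to 51 of 73 with single arrays left out, and the median log2 fold change from -0.11 to 0.06; among the other alternatives the counts ran from 16 (median centring) to 25 (quantile normalization), and the median from -0.07 to -0.03. With the replicate block 20 of 73 were higher and the median was -0.06, which was fixed in advance. In this balanced design the block can change p-values but no fold change. It changed no call. The deviations of arrays with the same number correlated across genes at -0.71, 0.50 and -0.67, and 2 of 6 arrays correlated best with their own number. The arrays of low mitosis genes, empty-vector array 1 and GHSROS array 3, carry different numbers. With 3 arrays per group, these correlations cannot show whether arrays of the same number share a day or batch.

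The replicate block, limma's trend with robust fitting and the filter at the median level leave each log2 fold change as it is. Averaged probe sets changed only that of METTL15 (-0.21) among 40 named genes. Many of the values counted next therefore could not turn. Of the log2 fold changes of 40 named genes, 481 values kept their direction and 36 turned, 33 of the latter with a single array left out. Outside the omission of single arrays these were CHCHD1 (-0.0055, median centring), KIF11 (0.0065, quantile normalization) and MRPS26 (-0.043, without empty-vector array 1 and GHSROS array 3 together, chosen with earlier results known). With single arrays left out, values ran from -0.24 to 0.19 for MRPL13, -0.00063 to 0.28 for MRPL33, -0.22 to 0.35 for MRPL35, -0.051 to 0.22 for MRPL42, -0.23 to 0.077 for MRPL50, -0.24 to 0.30 for MRPS9, -0.055 to 0.15 for MRPS15, -0.10 to 0.018 for MRPS18B, -0.28 to 0.10 for MRPS18C, -0.041 to 0.35 for MRPS25, -0.045 to 0.12 for MRPS26, -0.21 to 0.095 for MRPS27, -0.13 to 0.076 for CHCHD1, -0.33 to 0.27 for KIF11, -0.0053 to 0.48 for NUSAP1, -0.023 to 0.54 for PNPT1, -0.34 to 0.054 for TEFM and -0.0046 to 0.077 for SLC7A11. The cause was not tested. The other 22 named genes kept their sign, and 20 of them, all but MRPL23 and MRPS16, moved by over 1.5 times in at least 1 alternative. Signal over background is not in the values used, and 2 of the 73 genes, MRPS18C and MRPL54, lay below the median level of all genes, where differences can be compressed.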
